A study of Oryza brachyantha and Oryza sativa Japonica Group and Oryza glaberrima with 38 samples.

Results

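Histone H3 dimethylated at lysine 4 (H3K4me2) without the marks it usually accompanies was examined in Oryza brachyantha, a wild African rice with a compact genome. An interval was taken as H3K4me2 alone when no base of it was shared with a tillering interval of H3K4me3 (either batch), H3K9Ac, H3K56Ac or H3K27me2. Of 41187 H3K4me2 intervals on chromosomes 1 to 12, 8953 (21.7%) met this rule. The intervals were thus chosen by the peak calls of the H3K4me2 library and of the 5 libraries of the rule, so the absence of those marks is no result.

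The series profiled histone marks by chromatin immunoprecipitation and sequencing in above-ground tissue of 6 grasses, and its stated purpose was a comparison of heterochromatin between related genomes. Of 38 samples, 21 have a peak list and 11 of these are from O. brachyantha. At tillering, 60 days after germination, the O. brachyantha lists used here were H3K4me2, H3K9Ac and H3K27me2 (batch 1), H3K56Ac (batch 2), and H3K4me3 and H3K9me2 (a library in each batch). Shoots of 2-week seedlings gave 1 library each of H3K4me3, H3K9me2 and H3K27me, whose label does not state the number of methyl groups. All plants were grown in a greenhouse, with no genotype or treatment named beyond the species. The control named in the titles was histone H3 for H3K4me2 and batch 1 H3K4me3 and input DNA for the other lists, so lists of the rule differ in control and in batch. A library of H3K36me3 was not analysed here. Peak scores are the authors' own, and read depth is unknown. H3K4me2 has a single library, which defines every interval compared here, and no mark has more than 2 libraries at a stage, so values are given without a test between plants. Shares are given with 95% exact (Clopper-Pearson) binomial intervals, which cover counting error only, and intervals of 1 library are not replicates.

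In plants H3K4me3 sits just inside the start of transcribed genes together with acetylated H3K9 and H3K56, and H3K4me2 commonly surrounds it and extends into the gene body. In rice and Arabidopsis high gene-body H3K4me2 has been linked to low rather than high transcript levels. H3K27me2 is found on weakly expressed genes and between genes, and H3K9me2 marks silent, transposon-rich heterochromatin, including transposons inside long introns.

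The H3K4me2-alone intervals were narrow and weak. Their width ranged from 169 to 3177 bp with a median of 279 bp (quartiles 211 and 403 bp), whereas the other 32234 H3K4me2 intervals had a median of 824 bp (519 and 1207 bp). Intervals of at most 200 bp, close to the narrowest in the list, made up 20.4% of those alone and 2.69% of the others. Only 172 of those alone (1.92%) reached 1000 bp, against 37.1% of the others. Together they took up 3.11 Mb, which is 9.37% of the H3K4me2 bp and 1.20% of the chromosome length. Strength differed in the same way as width. The median fold enrichment over the H3 control was 2.27 in the intervals alone (quartiles 2.04 and 2.58) and 4.00 in the others, the median pileup was 30 against 58, and the median −log10 q was 3.90 against 17.3. These scores come from the library that chose the intervals and are a description. A narrow interval also had fewer bases in which to meet another mark.

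**Figure D1:**
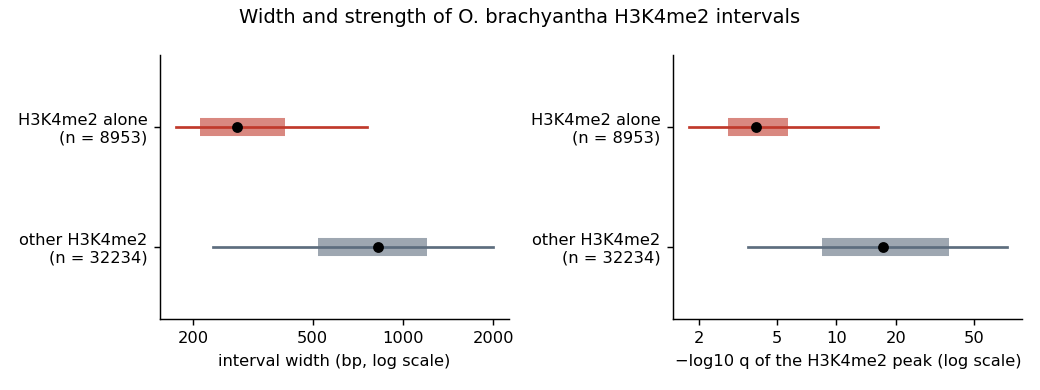
Width in bp (left) and −log10 q (right) of H3K4me2-alone and other H3K4me2 intervals, on log axes. Points are medians, thick bars the quartiles and thin lines the 5% to 95% range. The intervals alone have a median width of 279 bp and a median −log10 q of 3.90, against 824 bp and 17.3 for the others.

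Most weak H3K4me2 intervals were alone and nearly no strong one was. In the lowest quartile of −log10 q over all H3K4me2 intervals, 62.3% were alone. The share was 17.7% in the second quartile, 5.04% in the third and 1.40% (144 of 10285) in the highest. The edge of the rule separated like from like. The 111 intervals alone that lay less than 50 bp from another mark had a median width of 279 bp, a median fold of 2.24 and a median −log10 q of 3.79. The 144 excluded intervals that shared at most 50 bp with another mark had a median width of 298 bp, a median fold of 2.27 and a median −log10 q of 3.98.

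Of the 8953 intervals, 7508 (83.9%) were touched by none of the 5 lists outside the rule, which are seedling H3K4me3, the 3 H3K9me2 lists and seedling H3K27me. Of all H3K4me2 intervals 31.1% were touched by none of these 5, and of the others 16.4%. H3K9me2 or H3K27me of any library touched 455 of those alone (5.08%), where it touched 3.71% of all H3K4me2 intervals and 3.33% of the others.

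Most H3K4me2-alone intervals lay inside genes. They touched an annotated gene in 8014 cases (89.5%, 88.9 to 90.1), where all H3K4me2 intervals did so in 87% and the others in 86.3%, while genes take up 37.9% of the chromosome length. The order of the shares for alone and other intervals was not fixed. It turned with intervals of at least 500 bp (86.4% against 89.1%), with the 50% of H3K4me2 intervals of highest −log10 q (68.4% against 85.2%), and when only the 50% of peaks of highest −log10 q of the other marks excluded an interval (84.6% against 88.2%). Position within the gene differed more. Of the intervals alone, 7606 (85.0%) lay wholly inside genes, against 62.6% of all H3K4me2 intervals and 56.4% of the others, and the share was above that of the others on 12 of 12 chromosomes. In intervals of at most 250 bp it was 90.8% against 75.1%, and in those over 1000 bp 62.8% against 45.3%. Among intervals of like −log10 q the order was kept in the lowest quartile (92.5% against 83.2%) and turned in the second (75.3% against 77.6%), the third (40.5% against 57.2%) and the highest (25.7% against 27.8%).

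Their host genes were long, and most carried H3K4me3 and acetylation outside the interval. Wholly inside 1 protein-coding gene lay 7327 intervals (81.8%), in 5246 genes with a median length of 5128 bp, where all protein-coding genes have a median of 3209 bp. For 92.2% of these intervals the gene also had tillering H3K4me3, for 91.9% it had H3K9Ac or H3K56Ac, and for 94.0% it had another H3K4me2 interval that was not alone. H3K27me2 was present in the gene for 23.8%. These shares count a gene once for each interval in it. Counted per gene, tillering H3K4me3 was found on 87.9% of protein-coding genes touched by an H3K4me2-alone interval, on 91.4% of those with other H3K4me2 and none alone, and on 86.2% of all. Acetylation was found on 87.7%, 85.7% and 82.6%, and H3K27me2 on 24.3%, 51.3% and 42.6%. Other H3K4me2 was on 91.5% of all protein-coding genes, and 521 of the 5577 touched by an interval alone had none. Short genes with an interval alone mostly lacked H3K4me3. Up to 1 kb none of 100 had it, against 77.7% of those with other H3K4me2 only, and from 1 to 2 kb 34.2% did, against 88.9%. Within genes of 2 to 4 kb, those with an H3K4me2-alone interval had H3K4me3 in 84.3% of cases and those with other H3K4me2 and none alone in 93.8%. In genes of 4 to 8 kb the shares were 94.6% and 95.3%, and in genes over 8 kb 95.9% and 93.8%. H3K27me2 was less frequent on genes with an interval alone than on those with other H3K4me2 only in each of these 5 length classes, with 6% against 71.0%, 27.6% against 69.8%, 25.6% against 42.7%, 22.6% against 37.6%, and 27.5% against 54.3%. The rule itself removes intervals on H3K4me3 and H3K27me2, and every other H3K4me2 interval meets at least 1 mark of the rule. These orders were thus partly set by the choice. In genes up to 1 kb, which leave the least room beside an interval, they were largely set by it.

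The share of genes that held an H3K4me2-alone interval followed gene length. It was 22.4% over all 26302 annotated genes and 24.0% (5577 of 23230) over protein-coding genes. Of protein-coding genes up to 1 kb 5.23% held one, of those of 1 to 2 kb 4.91%, of 2 to 4 kb 19.0%, of 4 to 8 kb 38.9%, and of those over 8 kb 58.4%. These shares are not corrected for length, and a longer gene has more sequence in which to hold one. The mean number per gene in these classes was 0.0533, 0.0524, 0.214, 0.523 and 1.13. Median gene lengths were 778, 1492, 2958, 5223 and 10242 bp. A single interval was present in 4090 genes, a pair in 1086 and 3 in 256, and the most in 1 gene was 12. Of pseudogenes, 15.9% (178 of 1120) held one, and of lncRNA genes 12.2% (128 of 1051). Per 10 kb of gene, protein-coding genes had 0.845 intervals alone, pseudogenes 0.544 and lncRNA genes 0.481. None of 70 rRNA, 55 snRNA and 474 tRNA genes held one, whereas 10 of 295 snoRNA genes did (3.39%). These short genes have medians of 73 to 151 bp, less than the narrowest interval.

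Within genes the intervals alone were spread over the body and sparse at both ends. Strand was not used here, so genes of at least 2 kb with tillering H3K4me3 within 500 bp of exactly 1 end were oriented by that end (12759 of 16743 genes, median length 4225 bp). Of the 6066 intervals alone wholly inside such genes, 22.2% lay in the third of the gene next to the marked end, 49.3% in the middle and 28.5% in the third farthest from it. Their median position was 51.4% of the gene length, or 2738 bp from the marked end. The covered share of bp was 0.0715% in the first 5% of the gene, 4.76% at 40 to 45% and 0.967% in the last 5%. The first part of the gene was largely closed to them by the rule, since 9.17% of its bp were free of the 5 excluding lists, against 87.6% at 40 to 45%. Counted over free bp only, coverage was 0.780% in the first 5%, 3.97% to 5.47% from 10 to 75% of the gene, and 1.03% in the last 5%. Other H3K4me2 intervals covered most at 5 to 10% of the gene (65.7% of bp), 13.6% at 40 to 45%, where coverage by those alone was highest, and 3.22% in the last 5%.

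**Figure D2:**
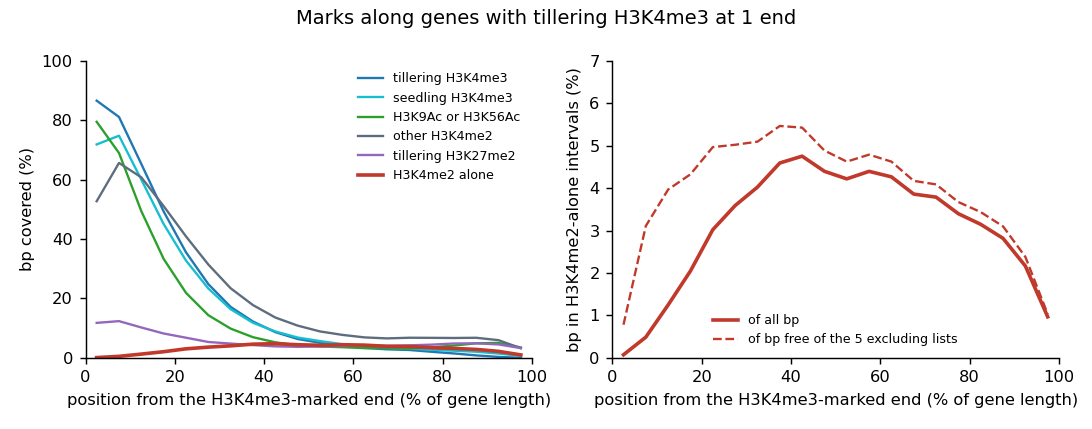
Coverage (percent of bp) along 12759 genes with tillering H3K4me3 at 1 end, from that end (0) to the other (100% of gene length), in 20 equal bins. Left, all marks. Right, H3K4me2-alone intervals over all bp (solid) and over bp free of the 5 excluding lists (dashed), which peak at 4.76% and 5.47% between 35 and 45% of the gene length and fall to 0.967% and 1.03% in the last bin.

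Outside genes lay 939 intervals alone (10.5%), at a median of 1962 bp from the nearest gene, and 270 of them (28.8%) were within 1 kb. For other H3K4me2 intervals outside genes the median was 2113 bp and 27.7% lay within 1 kb. Distances over 10 kb were found for 58 intervals alone (6.18% of those outside genes), against 8.76% of the other H3K4me2 intervals outside genes. The 3 farthest from a gene were on chromosome 10 from 6663922 to 6664211 (28.6 kb from the nearest gene, fold 1.93), chromosome 7 from 1472803 to 1473078 (28.6 kb, fold 4.01) and chromosome 9 from 7667011 to 7667367 (24.7 kb, fold 2.78), all coordinates on assembly RS2. None of the 3 had seedling H3K4me3 or H3K9me2, and that on chromosome 10 was 56.6% covered by seedling H3K27me.

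Marks of active genes lay nearer to the intervals alone than H3K27me2 did. The median distance from an interval alone to the nearest H3K4me3 of either batch was 1613 bp, to H3K9Ac or H3K56Ac 1612 bp, and to H3K27me2 5509 bp. These distances are bounded by the rule and are given without those of other positions in genes. Of all protein-coding genes, 86.2% had tillering H3K4me3 and 42.6% H3K27me2. Within 500 bp of any of the 5 lists lay 2010 intervals (22.5%), and 553 (6.18%) lay over 5 kb from all of them. The next H3K4me2 interval was 749 bp away in the median, and 421 intervals (4.70%) had none within 5 kb. That nearest interval carried H3K4me3 for 58.4% of the intervals alone, where 64.1% of all H3K4me2 intervals carry it. It was itself alone for 32.7%, where 21.7% of all H3K4me2 intervals are. H3K4me2-alone intervals followed each other without another H3K4me2 interval between them in 554 runs of at least 3, which held 1987 intervals (22.2%), and 4398 intervals (49.1%) had another kind of H3K4me2 interval on both sides. The longest run had 11.

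Over the chromosomes the intervals alone followed the genes. Their density was highest on chromosome 3 (40.8 per Mb, 113 genes per Mb) and chromosome 2 (40.1 per Mb, 110 genes per Mb). It was lowest on chromosome 11 (26.5 per Mb, 89.7 genes per Mb) and chromosome 10 (27.1 per Mb, 86.1 genes per Mb). The share of H3K4me2 intervals that were alone varied little, from 20.4% on chromosome 8 to 22.9% on chromosome 3. In 252 full windows of 1 Mb, each held 2 to 81 intervals alone with a median of 32. The incomplete last window of each chromosome was left out. Their number per window had a Spearman's rho of 0.858 with protein-coding genes, 0.848 with other H3K4me2 intervals and −0.769 with tillering H3K9me2 coverage. For the other H3K4me2 intervals rho was 0.977 with protein-coding genes and −0.866 with H3K9me2 coverage. Neighbouring windows are not independent and all lists share the genome, so these are descriptions. In the 34 windows with at least 30% tillering H3K9me2 (mean of both batches) there were 0.353 intervals alone per protein-coding gene. The ratio was 0.334 in the 37 windows with 10 to 30%, 0.393 in the 129 with 1 to 10% and 0.392 in the 52 with less than 1%. For other H3K4me2 intervals it was 1.52, 1.46, 1.39 and 1.37 in the same order.

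**Figure D3:**
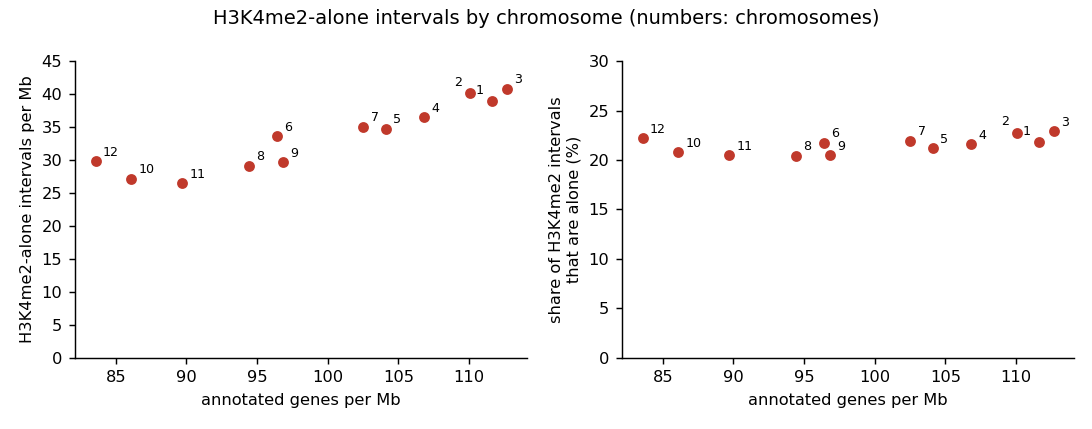
H3K4me2-alone intervals per Mb (left) and as a percent of all H3K4me2 intervals (right) against annotated genes per Mb, each point 1 of the 12 chromosomes with its number. Density ranges from 26.5 per Mb on chromosome 11 to 40.8 on chromosome 3, and the share stays between 20.4% and 22.9%.

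Seedling H3K4me3, which the rule did not use, was present on few of these intervals. It touched 1037 of 8953 (11.6%, 10.9 to 12.3), where it touched 67.1% of all H3K4me2 intervals and 82.5% of the others. The share ranged from 9.70% on chromosome 12 to 13.3% on chromosome 8, and that of the others from 79.5% to 84.2%, so the chromosomes did not overlap. In bp, seedling H3K4me3 covered 7.53% of the intervals alone, 57.4% of the others and 8.60% of the chromosome length. The rule removed intervals on tillering H3K4me3, and most seedling H3K4me3 lies on tillering H3K4me3, so a low share follows in part from the rule. A nearer comparison is with sequence that is likewise free of the 5 lists. Inside genes, seedling H3K4me3 covered 6.84% of the bp of H3K4me2-alone intervals and 1.18% of the 62.2 Mb with neither H3K4me2 nor a mark of the rule. Outside genes the values were 12.05% and 0.0534%. With 1 seedling library the difference between stages was not tested.

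The combinations closest to H3K4me2 alone had more seedling H3K4me3. Intervals that lacked tillering H3K4me3 but met H3K9Ac or H3K56Ac without H3K27me2 (n = 2005) had it in 16.4% of cases (14.8 to 18.1). Those that met H3K27me2 without acetylation (n = 2429) had it in 38.2% (36.2 to 40.1), and those with both (n = 1404) in 43.3% (40.7 to 45.9). With tillering H3K4me3 of either batch (n = 26396) the share was 93.7%. Where H3K4me3 of only 1 of the batches and no other mark of the rule was met (n = 447), it was 58.8% (54.1 to 63.4). Median widths differed as well, from 279 bp for the intervals alone to 395 bp with acetylation, 581 bp with H3K27me2, 595 bp with both and 894 bp with H3K4me3, and 540 bp with H3K4me3 of only 1 batch and no other mark. Their part in the shares was not tested.

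Among the H3K4me2-alone intervals the strong ones often carried seedling H3K4me3. In the lowest quartile of −log10 q 551 of 6481 (8.50%) had it, in the second 215 of 1809 (11.9%), in the third 172 of 519 (33.1%) and in the highest 99 of 144 (68.8%). Other H3K4me2 intervals had 65.3%, 79.7%, 82.3% and 91.6% in the same quartiles. In the highest quartile 35.0% of the bp of the intervals alone were covered, and in the lowest 4.70%. Width moved with strength, with a median of 257 bp in the lowest quartile and 749 bp in the highest. By width, the share was 6.96% up to 250 bp, 10.9% from there to 500 bp, 22.9% to 1000 bp and 45.9% above.

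**Figure D4:**
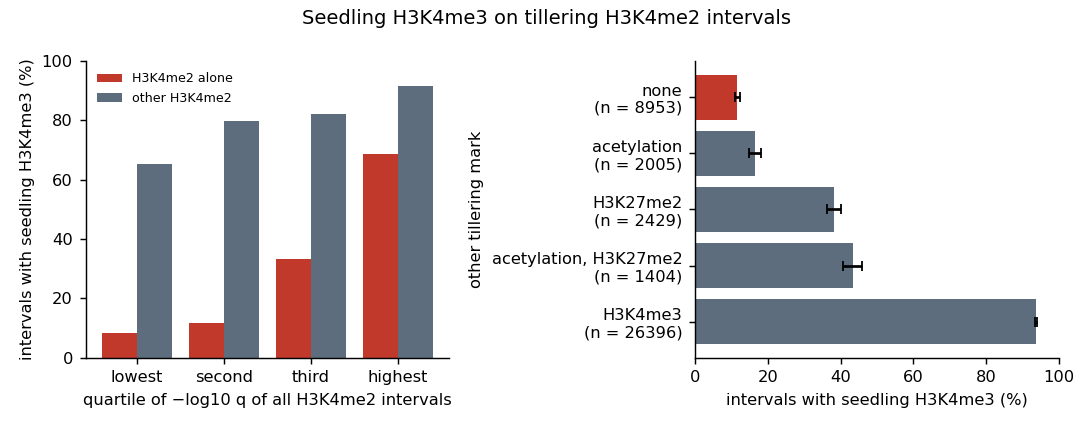
Percent of tillering H3K4me2 intervals with any bp of seedling H3K4me3. Left, by quartile of −log10 q for intervals alone and others, from 8.50% to 68.8% for those alone. Right, by the other tillering mark on the interval (acetylation is H3K9Ac or H3K56Ac, and the bars above the last one lack H3K4me3), with 95% exact binomial intervals.

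The seedling peaks on these intervals were mostly small and separate from tillering H3K4me3. Of 34160 seedling H3K4me3 intervals 1075 (3.15%) touched an interval alone. Of these 1021 (94.98%) met no tillering H3K4me3, while 82.0% of the seedling intervals elsewhere met it. Their median width was 245 bp and their median fold 2.36, against 588 bp and 3.00 elsewhere. The 54 that also met tillering H3K4me3 had a median width of 1232 bp. Counted over H3K4me2-alone intervals, 982 of the 1037 (94.7%) lay on seedling peaks without tillering H3K4me3, 540 were at least 50% covered and 56 were covered in full. With the 50% of seedling H3K4me3 peaks of highest −log10 q 1.01% of the intervals alone were touched, so nearly all seedling H3K4me3 on them came from the weaker peaks of that list.

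Position set off the intervals with seedling H3K4me3 as well. Within 250 bp of tillering H3K4me3 21.5% of the intervals alone had it (17.9 to 25.5), and the share was 13.3% at 250 to 500 bp, 12.05% to 1 kb, 8.50% to 2 kb and 9.29% to 5 kb. Beyond 5 kb it was 15.9% (14.0 to 18.0). In the third of the gene next to the H3K4me3-marked end 15.7% had seedling H3K4me3, in the middle 10.2% and in the third farthest from it 5.79%.

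A small group of protein-coding genes bore H3K4me2 with none of the 5 tillering lists of the rule. In 343 genes, 6.15% of those with an interval alone, no H3K4me3, acetylation, H3K27me2 or other H3K4me2 was found. Seedling H3K4me3 lay on 117 of them (34.1%) and tillering H3K9me2 of both batches on 2 (0.583%). Over all protein-coding genes these shares were 88.1% and 1.89%. Of 836 protein-coding genes with no interval of any of these tillering marks 14 (1.67%) had seedling H3K4me3 and 112 (13.4%) H3K9me2 of both batches. In 45 genes the intervals alone covered at least 90% of the body. These were short, with a median of 679 bp, though some were longer than 1 kb, and 29 of them (64.4%) had seedling H3K4me3. None of the 45 had tillering H3K4me3, which follows largely from their choice by body share. Of all protein-coding genes up to 1 kb, 70.4% had seedling H3K4me3, but 64.4% had tillering H3K4me3 as well or instead. Seedling H3K4me3 without tillering H3K4me3 was on 11.1% of them, so the shares are not like for like.

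Among protein-coding genes of at least 1 kb the body was covered most in LOC102701895 on chromosome 2 (27077262 to 27078949), LOC102705411 on chromosome 2 (12199830 to 12200966) and LOC102713302 on chromosome 9 (15122622 to 15123722). Each lay wholly within a single interval, with a fold of 5.99, 4.72 and 4.56. LOC102714517 on chromosome 1 (206531 to 207589) was 99.8% covered and LOC102715776 on chromosome 7 (13805019 to 13806881) 99.7%. They were followed by LOC102710583 (98.1%), LOC102718213 (96.0%), LOC102716196 (95.1%), LOC102716469 (93.6%) and LOC102710705 (90.5%). None of the 10 carried H3K4me3, acetylation, H3K27me2 or H3K9me2 of both batches at tillering. For the marks of the rule this follows largely from the choice of the genes by body share. Of the 10 genes, 7 had seedling H3K4me3. LOC102710583, LOC102718213 and LOC102716469 were those without it. The gene names are those of the annotation, which gives no function for them here.

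At the other end were long genes with many weak intervals. LOC102718013 on chromosome 8 (13100404 to 13132801, 32.4 kb) held 12 intervals alone of 184 to 373 bp, with folds of 1.75 to 2.44, which took up 10.4% of its body. LOC102706882 on chromosome 10 (35.7 kb) held 11, LOC102716945 on chromosome 3 (34.5 kb) and LOC102705454 on chromosome 7 (11.3 kb) 10 each, and LOC102701919 on chromosome 6 (35.3 kb) 9. The body share was largest in LOC102705454, at 33.1%. All 5 genes also had tillering H3K4me3, acetylation, seedling H3K4me3 and other H3K4me2 intervals. H3K27me2 was on LOC102718013, LOC102716945 and LOC102705454, and H3K9me2 of both batches on LOC102718013, LOC102716945 and LOC102701919.

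Of the 5 intervals of highest −log10 q, 4 overlapped a gene. In the highest quartile of −log10 q 28.5% of the intervals alone lay outside genes, against 10.5% of all of them. The highest −log10 q, 70.5, belonged to chromosome 8 from 3933523 to 3934539 (1017 bp, fold 8.41, pileup 126), inside an end of the 7658 bp gene LOC102700920. It had no seedling H3K4me3 and lay 1167 bp from tillering H3K4me3. The next was chromosome 6 from 311855 to 312599 (−log10 q 70.3, fold 8.73) over the 600 bp gene LOC102714929. Seedling H3K4me3 covered 49.1% of this interval. It was followed by chromosome 7 from 2814880 to 2815394 (65.5, fold 7.83), 4.37 kb from the nearest gene and 48.0% covered by seedling H3K4me3. Chromosome 7 from 13805025 to 13807480 (63.9, fold 7.29) holds nearly all of LOC102715776, and chromosome 6 from 1421182 to 1422419 (60.3, fold 8.24) overlaps LOC107304461. Seedling H3K4me3 covered 28.7% of the former and 79.2% of the latter.

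The widest interval alone was on chromosome 1 from 23974231 to 23977407 (3177 bp, fold 3.34), 785 bp from the nearest gene. The next were chromosome 11 from 17225702 to 17228241 (2540 bp, fold 4.77) inside LOC102702615, the interval on LOC102715776 (2456 bp), chromosome 1 from 30258021 to 30260336 (2316 bp, fold 3.57) inside LOC102721701, and chromosome 9 from 8241298 to 8243603 (2306 bp, fold 4.25) inside LOC102715142. Seedling H3K4me3 covered 10.6% to 52.9% of each of these 5. Of intervals covered in full by it, the strongest was chromosome 2 from 25892281 to 25892848 (fold 5.05), 2.23 kb from the nearest gene, where the seedling peak had a fold of 2.53. Those on chromosome 8 from 15698939 to 15699191 (fold 3.57) and chromosome 9 from 10634800 to 10635056 (fold 3.29) lay in LOC102707702 and LOC102704642, at 269 and 227 bp from tillering H3K4me3.

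Of noncoding and pseudogenes, the body was covered most in the lncRNA genes LOC107304963 (72.4%) and LOC107304617 (61.2%), the pseudogenes LOC121055515 (100%) and LOC107304202 (76.3%), and the snoRNA genes LOC121053339 and LOC121056077 (100% each), which lie within intervals of 1055 and 791 bp. Of these 6, LOC107304963 had seedling H3K4me3.

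H3K9me2 lay on few H3K4me2-alone intervals, though on a larger share than of other H3K4me2. Tillering H3K9me2 touched 185 (2.07%) in batch 1 and 216 (2.41%) in batch 2, against 0.490% and 0.797% of the others. Both batches touched 172 (1.92%, 1.65 to 2.23), where they touched 0.68% of all H3K4me2 intervals and 0.335% (0.275 to 0.404) of the others. Among the others, they touched 4.03% of the 2429 that met H3K27me2 without H3K4me3 or acetylation, above the share of those alone. They touched 0% of those with acetylation only and 0.142% of those with acetylation and H3K27me2. Of the 26396 with H3K4me3, which the rule removes, they touched 0.0303%. Seedling H3K9me2 touched 234 (2.61%), where it touched 1.33% of all H3K4me2 intervals and 0.974% of the others. For both measures the share was above that of the others on 12 of 12 chromosomes. All of these shares are low, since H3K9me2 covers 9.18% to 13.5% of the chromosomes. Weak H3K4me2 intervals had the mark more often in either set. In the lowest quartile of −log10 q both batches touched 2.14% of the intervals alone and 1.71% of the others, in the second 1.82% and 0.346%, and in the upper 2 quartiles none of the 519 and 144 alone.

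The intervals on H3K9me2 lay in very long genes, a trait not particular to this set. Tillering H3K9me2 of both batches was on 12.9% of all protein-coding genes over 8 kb, against 0.821% of those of 4 to 8 kb. Over 8 kb it was on 10.3% of genes with an interval alone and 14.1% of those with other H3K4me2 and none alone. All 3 H3K9me2 lists touched 169, which is 64.3% of the 263 touched by any. Of these 169, 149 (88.2%) were wholly inside a protein-coding gene, in 68 genes with a median length of 14408 bp, whereas the intervals on no H3K9me2 list lay in genes with a median of 5098 bp. For 91.9% of these 149 the gene had tillering H3K4me3, close to the 92.3% for intervals on no H3K9me2 list, and for 62.4% it had H3K27me2, against 22.9%. These shares count a gene once for each interval in it, and gene length was not matched. The nearest tillering H3K4me3, in any gene or none, was at a median of 5954 bp from the 169 intervals and 1562.5 bp from those on no H3K9me2 list. The strongest were chromosome 6 from 20845387 to 20845684 in LOC102706857 (13915 bp, fold 3.09), chromosome 10 from 15534727 to 15535854 in LOC102712573 (7997 bp, fold 3.01) and chromosome 3 from 20296395 to 20296777 in LOC102722287 (11553 bp, fold 2.76). Each was covered in full by all 3 H3K9me2 lists. Exon and intron positions were not analysed here.

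**Figure D5:**
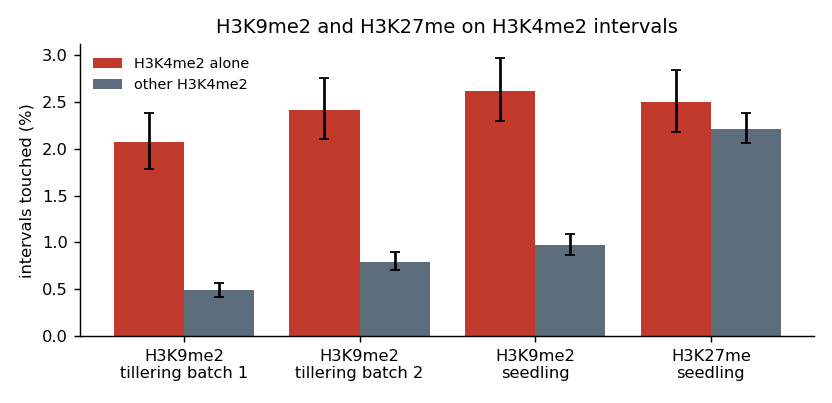
Percent of H3K4me2-alone (red) and other H3K4me2 intervals (grey) with any bp of H3K9me2 or H3K27me, by library, with 95% exact binomial intervals. H3K9me2 touches 2.07% to 2.61% of those alone and 0.490% to 0.974% of the others, and H3K27me 2.49% and 2.21%.

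Seedling H3K27me touched a similar share of both sets when all intervals were counted and in the classes of strength and width that held most intervals alone. The shares differed more in the smaller classes. It touched 223 (2.49%, 2.18 to 2.84), where it touched 2.27% of all H3K4me2 intervals and 2.21% (2.05 to 2.38) of the others, and the share was higher on 7 of 12 chromosomes and lower on 5. At least 50% of the interval was covered in 1.47% of those alone and 0.630% of the others, the whole interval in 0.681% and 0.158%, and the covered share of bp was 1.61% and 0.775%. Among intervals of like −log10 q, H3K27me touched 2.07% of those alone and 1.76% of the others in the lowest quartile, 3.59% and 1.29% in the second, 4.24% and 2.32% in the third, and 1.39% and 3.05% in the highest. By width, it touched 1.79% and 1.96% up to 250 bp, 2.53% and 2.23% from there to 500 bp, 3.69% and 1.63% to 1000 bp, and 8.14% and 2.87% above. The quartiles held 6481, 1809, 519 and 144 intervals alone, and the width classes 3634, 3953, 1194 and 172. The order of the sets turned in the highest quartile of −log10 q, with few intervals alone, and in the narrowest class, where the shares were close. Of the 223, 192 (86.1%) met no H3K9me2 list, and 12 of the 169 intervals on all 3 H3K9me2 lists met H3K27me. In bp, seedling H3K27me covered 1.49% of the intervals alone inside genes and 5.40% of gene sequence with neither H3K4me2 nor a mark of the rule. Seedling H3K9me2 covered 2.54% and 4.66% of the same sequence.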

How the data were processed

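Each line of the deposited lists holds a coverage value (pileup signal) and, in a single joined field, the authors' −log10 p, fold ratio over the control and −log10 q. Bowtie, MACS2 and bedtools are named without versions in the submitters' processing notes. Thresholds and the handling of multi-mapped reads are not given in the sources used here. Each list belongs to 1 library. The lowest −log10 q was 1.31 for H3K4me2, and 1.30 to 1.31 in the lists of the rule. It was 1.30 for seedling H3K4me3 and lower, at 1.01, in each of the H3K9me2 and H3K27me lists.

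H3K4me2 intervals were merged where they touched (41201 before and after, 14 of them outside chromosomes 1 to 12). Overlap meant at least 1 shared bp. Genes came from the RefSeq annotation of assembly ObraRS2, and the files name assembly RS2. On each chromosome the last gene end lay within 8.16 kb of the last peak end. Chromosome length was the last peak or gene end (259 Mb in all). Strand, exons, product names and sequence were not used here, so 20 gene classes listed by product name were not applied and 5 by biotype were. Python 3.11.15, numpy 2.4.6, pandas 2.3.3 and scipy 1.17.1 were used, and the overlap code was tested on simulated intervals. Named intervals were the 5 of highest −log10 q, the 5 widest, the 3 farthest from a gene, and the 3 strongest among those covered in full by seedling H3K4me3 and among those at least 50% covered by H3K9me2 of both batches. Named genes were the 10 with the largest body share, the 5 with the most intervals and 2 per biotype. The intervals, lists and rules were chosen with earlier results of these data known. The labels do not say whether libraries came from separate plants.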

Additional observations from a re-analysis of the deposited data

How the results depend on the processing

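The number of H3K4me2-alone intervals stayed within 1.5 times of 8953 (5984 to 10132) except in 3 settings. It was 665 with the 50% of H3K4me2 intervals of highest −log10 q, 14132 when only the 50% of peaks of highest −log10 q of the other marks excluded an interval, and 1371 with intervals of at least 500 bp. In these settings seedling H3K4me3 touched 40.9%, 24.0% and 25.7%, a gene was touched by 68.4%, 84.6% and 86.4%, and the median width was 573, 347 and 646 bp. With only batch 1 lists in the rule the values were 13.6%, 87.9% and 290 bp. Without the H3K4me3 list of batch 1 or 2, the number was 9107 and 9246, the seedling share 12.4% and 13.1%, the gene share 89.5% in both, and the median width 281 and 282 bp. Merging H3K4me2 intervals at most 500 bp apart gave a gene share of 87.6% and a median width of 285 bp. The seedling share was 1.01% with the 50% of seedling peaks of highest −log10 q and 6.03% when at least 50% of the interval had to be covered. The gene share was 88.7% by midpoint and 86.0% with protein-coding genes only. The causes were not tested. Seedling H3K4me3 was on a smaller share of intervals alone than of other H3K4me2 intervals in all 10 settings of the rule. Each of these settings still excluded by tillering H3K4me3, so the order was largely set by the rule in all of them. No paired analysis was possible because the results come from no test and H3K4me2 has 1 library. Read depth is unknown, so a mark below its calling threshold in a list cannot be told from its absence, and narrow, weak intervals are the most exposed to this.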
